A study of Mus musculus with 6 samples.

Results

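The 10 genes described here are the D-type cyclins Ccnd1, Ccnd2 and Ccnd3, the E-type cyclin Ccne1, the CDK inhibitors Cdkn1a and Cdkn1b, the stress sensors Gadd45a, Gadd45b and Gadd45g, and the antiproliferative gene Btg2, and they were found by their symbols among the 23284 genes listed in the count tables. This set of genes was chosen with earlier results of these data known, so its share of called genes is a description. All 10 passed the filter on low counts, which kept 12559 genes. Liver RNA of C57BL/6 mice, 8 weeks old and male, was sequenced in 3 mice given vehicle and 3 mice given FGF19 at 1 mg/kg. FGF19 is the human counterpart of FGF15, the hormone that the mouse ileum releases after a meal. Every mouse had been fasted overnight and stayed without food for the 6 h of treatment, so both groups are fasted livers, and there was no group given another protein. The comparison asked which transcripts FGF19 changed in the fasted liver.

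D-type cyclins bind CDK4 and CDK6, and cyclin E binds CDK2, and these kinases phosphorylate RB so that E2F factors can switch on genes of DNA replication. CDKN1A (p21) and CDKN1B (p27) bind and restrain the cyclin and CDK complexes, GADD45 proteins bind the stress kinase MAP3K4, and BTG2 recruits the CCR4-NOT deadenylase to mRNAs. Most hepatocytes of an adult liver are quiescent, and Ccnd1 is known for its rise when the liver regenerates.

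A CDK inhibitor, the antiproliferative gene and a D-type cyclin were higher in the FGF19 group. Cdkn1a rose 3.00-fold, Btg2 rose 2.77-fold and Ccnd1 rose 1.57-fold. By edgeR's quasi-likelihood test, 3 of the 10 members were higher at an adjusted p under 0.05, beside 4.56% of all genes tested. The same test called 0 members lower, beside 2.84% of all genes, with 1 member lower at an unadjusted p under 0.05, and 0, 0 and 1 members were called lower by DESeq2, limma-voom and edgeR's likelihood ratio test. The median log2 fold change of the 10 members was -0.0083 and that of all genes tested was -0.00076. Levels are given as CPM, the counts scaled to a common library size, after TMM scaling, which corrects for library composition.

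**Figure D1:**
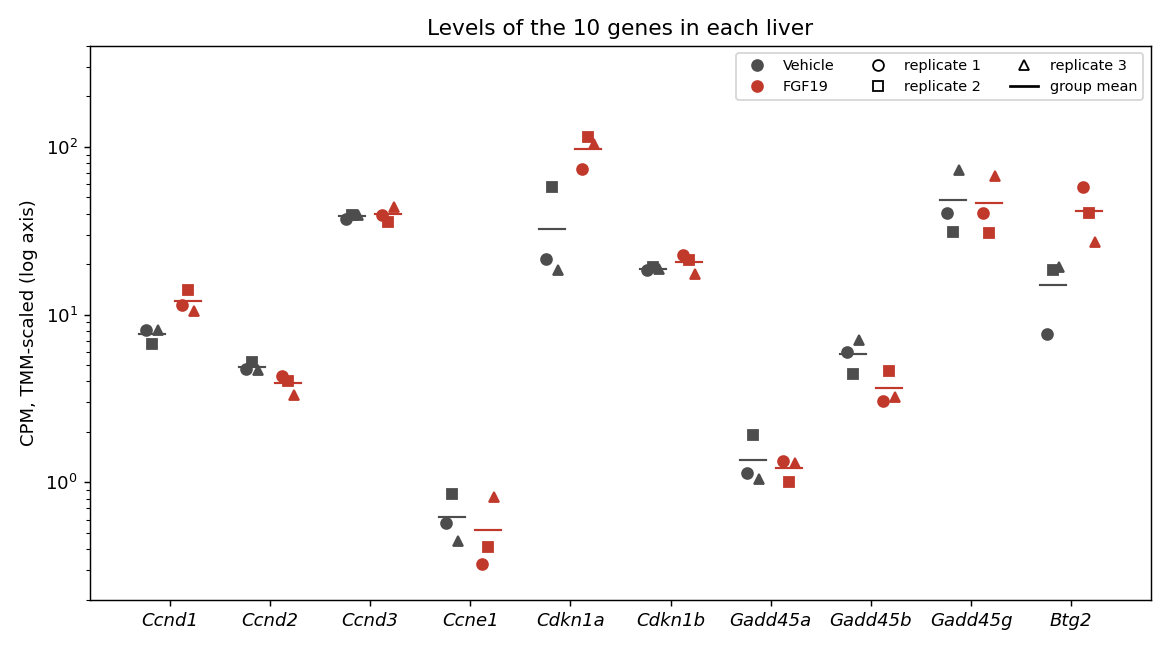
Level of each of the 10 genes in each liver, in TMM-scaled CPM on a log axis, with vehicle in grey and FGF19 in red, 1 point per mouse, a symbol shape per replicate and a line at the group mean. Cdkn1a, Btg2 and Ccnd1 are higher in every FGF19 liver than in every vehicle liver, and Ccnd2 is the reverse.

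As the promoters of Cdkn1a and Btg2 belong to the members with the largest rises, they are shown here as RefSeq gives them on build GRCm38.p6, each from 250 bases before to 50 bases after a transcript start, 5′ to 3′ on the gene's strand. Capitals mark the cAMP response element TGACGTCA.
Btg2, chr1:134079106-134079405, minus strand: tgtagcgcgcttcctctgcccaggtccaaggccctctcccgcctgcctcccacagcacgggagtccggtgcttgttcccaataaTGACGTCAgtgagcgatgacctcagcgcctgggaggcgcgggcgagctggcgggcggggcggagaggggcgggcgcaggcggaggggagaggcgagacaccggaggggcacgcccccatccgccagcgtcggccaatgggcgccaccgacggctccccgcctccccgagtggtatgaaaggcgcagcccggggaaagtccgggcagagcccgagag
Cdkn1a, upstream start, chr17:29090729-29091028, plus strand: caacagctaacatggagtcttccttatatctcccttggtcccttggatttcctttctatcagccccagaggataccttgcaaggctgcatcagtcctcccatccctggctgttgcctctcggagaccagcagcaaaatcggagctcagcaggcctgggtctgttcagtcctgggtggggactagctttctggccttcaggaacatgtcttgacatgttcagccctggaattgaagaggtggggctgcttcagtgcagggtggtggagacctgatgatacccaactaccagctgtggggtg
Cdkn1a, downstream start, chr17:29093519-29093818, plus strand: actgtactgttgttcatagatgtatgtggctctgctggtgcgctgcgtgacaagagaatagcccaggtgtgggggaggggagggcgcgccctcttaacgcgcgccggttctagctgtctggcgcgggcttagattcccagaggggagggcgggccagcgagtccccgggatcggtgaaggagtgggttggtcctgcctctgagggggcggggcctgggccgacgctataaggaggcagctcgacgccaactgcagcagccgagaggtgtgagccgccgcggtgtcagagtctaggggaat
Bases 85 to 92 of the Btg2 window hold this element, which 1.79% of the 32851 mouse windows hold on either strand. The Btg2 window is 72.0% G and C with 32 CG pairs, beside medians of 52.7% and 7 over all windows. The downstream Cdkn1a window has 64.7% G and C with 23 CG pairs, and the upstream one has 54.7% with 2. Neither Cdkn1a window held this element or any of the other motifs spelled out here, and the upstream window held the p53 half-site described with them.

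The other motifs searched on both strands were the AP-1 site TGANTCA, the ATF4 element TGATGNAA, the C/EBP site TTGCNNAA, the STAT site TTCNNNGAA, the E-box CACGTG, the FOXO site GTAAACA and the TATA box TATAAA. RefSeq windows were at hand for 8 of the 10 members, and Ccnd1 and Ccnd2 are named only. Gadd45b and Gadd45g each held an E-box and a TATA box, found in 7.15% and 13.6% of all windows, and Gadd45g also held an ATF4 element, found in 3.97%. Gadd45a held a C/EBP match, found in 10.8%, and Ccnd3 a FOXO match, found in 3.65%. Motifs of p53, whose best known target is Cdkn1a, were added after the promoters had been read. A 20-base p53 element, made of a pair of half-sites with no spacer and no mismatch, was in 0 member windows and in 0.00913% of all windows. The half-site alone, tried only after that spacerless search had found none, matched bases 178 to 187 and 200 to 209 of the upstream Cdkn1a window and bases 211 to 220 of the Gadd45a window, and 8.36% of all windows hold it. The half-sites of Cdkn1a have 12 bases between them, a distance that the spacerless search could not find. The bases right after base 209 of that window, tgacatgttc, differ from a half-site only at their first base. They adjoin the half-site at bases 200 to 209 with no spacer, and a search without mismatch could not find this pair. Elements with a spacer or a mismatch were not searched over all windows. A match is a string of letters and says nothing of binding.

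Among the cyclins, Ccnd1, which drives entry into the cycle from rest, was the member called. It lies on mm9 chromosome 7 from 152115836 to 152125830 on the minus strand. Its level was 8.10, 6.68 and 8.09 CPM in vehicle replicates 1, 2 and 3 and 11.4, 14.1 and 10.5 CPM in FGF19 replicates 1, 2 and 3. The groups did not overlap, and the lowest FGF19 liver lay above the highest vehicle liver. Vehicle livers averaged 7.62 ± 0.82 CPM (SD, n = 3), and the mean of the FGF19 livers was 12.0 ± 1.84 CPM (SD, n = 3). The log2 fold change was 0.65 with a standard error of 0.15 and a 95% interval of 0.31 to 0.99 (adjusted p = 0.0318).

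Ccnd2, the D-type cyclin on mm9 chromosome 6 from 127075727 to 127101066, had 4.77, 5.25 and 4.67 CPM with vehicle and 4.33, 4.04 and 3.30 CPM with FGF19. Every FGF19 liver was below every vehicle liver, yet the difference did not pass the test, with a log2 fold change of -0.33 and an interval of -0.70 to 0.04 (adjusted p = 0.273). It was the single member to lie lower without overlap, which 13.8% of all genes did, whereas 3 members lay higher without overlap, which 14.5% of all genes did. Ccnd3, on mm9 chromosome 17 from 47642000 to 47736637, had 37.4, 39.4 and 39.2 CPM with vehicle and 39.4, 35.9 and 44.1 CPM with FGF19. The groups overlapped, and the interval of its log2 fold change, -0.18 to 0.26, bounds the change that these livers leave possible (adjusted p = 0.842). Exon positions of Ccnd3 overlap those of Bysl, and its count is uncertain for that reason.

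Ccne1, the cyclin that acts at the start of DNA replication, lies on mm9 chromosome 7 from 38883003 to 38892509. It had between 7 and 18 reads in a liver, or 0.57, 0.85 and 0.45 CPM with vehicle and 0.33, 0.41 and 0.81 CPM with FGF19. The groups overlapped, and at this depth the interval of the log2 fold change ran from -1.25 to 0.75 (adjusted p = 0.793).

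**Figure D2:**
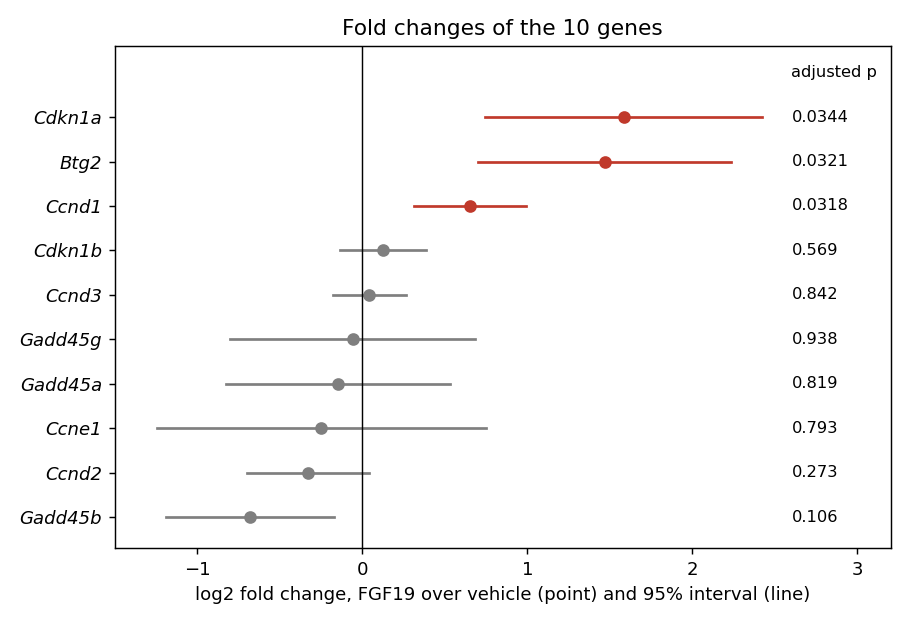
Log2 fold change of FGF19 over vehicle for the 10 genes from edgeR's quasi-likelihood fit, each point with its 95% interval as a line and its adjusted p at the right, in red where the adjusted p is under 0.05. Cdkn1a, Btg2 and Ccnd1 have intervals above 0, Gadd45b has an interval below 0 with an adjusted p of 0.106, and the intervals of the other members cross 0.

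Cdkn1a, which encodes p21, showed the largest fold change of the 10 members. It lies on mm9 chromosome 17 from 29227931 to 29237667 on the plus strand. The 3 vehicle livers had 21.6, 57.4 and 18.6 CPM and the 3 FGF19 livers had 73.4, 114 and 104 CPM. Vehicle replicate 2 stood above the other vehicle livers, and the groups still did not overlap. Vehicle livers averaged 32.5 ± 21.6 CPM (SD, n = 3), a coefficient of variation of 66.5%, and the mean of the FGF19 livers was 97.3 ± 21.2 CPM (SD, n = 3). The log2 fold change was 1.58 with a standard error of 0.37 and an interval of 0.74 to 2.42 (adjusted p = 0.0344).

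Cdkn1b, which encodes p27, lies on mm9 chromosome 6 from 134870419 to 134875543. Its level was 18.4, 19.2 and 18.6 CPM with vehicle and 22.6, 21.3 and 17.5 CPM with FGF19. The groups overlapped, and the interval of its log2 fold change was -0.13 to 0.39 (adjusted p = 0.569).

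Btg2, an immediate early gene that slows proliferation, lies on mm9 chromosome 1 from 135971442 to 135975732 on the minus strand. It had 7.67, 18.4 and 19.2 CPM with vehicle and 57.6, 40.2 and 27.2 CPM with FGF19. Vehicle replicate 1 was the lowest liver and FGF19 replicate 1 the highest, and the groups did not overlap. Vehicle livers averaged 15.1 ± 6.44 CPM (SD, n = 3), and the mean of the FGF19 livers was 41.7 ± 15.3 CPM (SD, n = 3). The log2 fold change was 1.47 with a standard error of 0.34 and an interval of 0.70 to 2.23 (adjusted p = 0.0321).

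None of the GADD45 genes passed the test. Gadd45b, on mm9 chromosome 10 from 80392836 to 80394949, had 5.96, 4.45 and 7.10 CPM with vehicle and 3.07, 4.64 and 3.21 CPM with FGF19, and the groups overlapped through vehicle replicate 2 and FGF19 replicate 2. Its log2 fold change was -0.68 with an interval of -1.19 to -0.17, an unadjusted p of 0.0137 and an adjusted p of 0.106, and by the likelihood ratio test the adjusted p was 0.0466. Gadd45g, on mm9 chromosome 13 from 51942044 to 51943843, had 40.6, 31.0 and 72.5 CPM with vehicle and 40.5, 30.8 and 67.1 CPM with FGF19. Replicate 3 was the highest in both groups, and the log2 fold change was -0.06 with an interval of -0.80 to 0.68 (adjusted p = 0.938). Gadd45a, on mm9 chromosome 6 from 66985090 to 66987401, had 1.14, 1.91 and 1.04 CPM with vehicle and 1.35, 1.01 and 1.31 CPM with FGF19. The groups overlapped (log2 fold change -0.15, adjusted p = 0.819), and exon positions of Gadd45a overlap those of E230016M11Rik.

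Without FGF19 replicate 3 all 3 members stayed called, whereas leaving out any of the other libraries ended the calls of Btg2 and Ccnd1, and Cdkn1a stayed called only without vehicle replicate 2 or FGF19 replicate 1 among those. For Cdkn1a, the adjusted p rose to 0.109 without vehicle replicate 1, 0.115 without vehicle replicate 3 and 0.106 without FGF19 replicate 2, and it was 0.0499 and 0.0458 without FGF19 replicates 1 and 3. Leaving out vehicle replicate 2 gave Cdkn1a a log2 fold change of 2.27 and an adjusted p of 0.000465. For Btg2, it was 0.0575, 0.0514 and 0.0719 without vehicle replicates 1, 2 and 3, 0.105 and 0.0792 without FGF19 replicates 1 and 2, and 0.0116 without FGF19 replicate 3. For Ccnd1, the same fits gave 0.0721, 0.0992, 0.0994, 0.0831, 0.123 and 0.0133 in that order. The log2 fold changes stayed above 0 throughout, from 1.30 to 2.27 for Cdkn1a, 1.15 to 1.70 for Btg2 and 0.53 to 0.74 for Ccnd1.

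**Figure D3:**
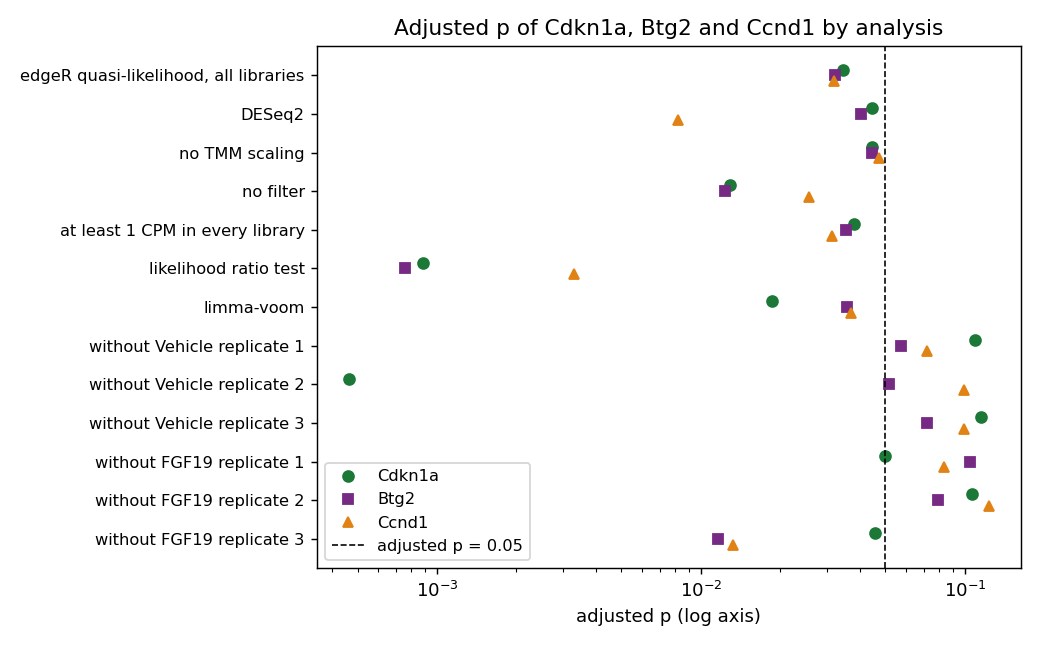
Adjusted p, on a log axis, of Cdkn1a (green circles), Btg2 (purple squares) and Ccnd1 (orange triangles) in the full edgeR fit, in 6 other analyses and with each library left out, with a dashed line at 0.05. All 3 genes lie under 0.05 with DESeq2, limma-voom, the likelihood ratio test and the other scaling and filters, and most fits without 1 library lie above it. The fit with the replicate number as a block is not drawn. Its adjusted p was 0.00549 for Cdkn1a, 0.0668 for Btg2 and 0.0887 for Ccnd1.

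Levels of different genes were set side by side as RPKM, which is CPM per kilobase of merged exon. With vehicle, Gadd45g had the highest level at 44.5 RPKM, followed by Ccnd3 at 17.1, Cdkn1a at 16.1, Cdkn1b at 7.80, Btg2 at 4.90, Gadd45b at 4.61, Ccnd1 at 2.01, Gadd45a at 1.11, Ccnd2 at 0.848 and Ccne1 at 0.318 RPKM. The ranges over mice overlapped for Ccnd3 and Cdkn1a, for Btg2 and Gadd45b and for Gadd45a and Ccnd2. With FGF19, the order by RPKM was Cdkn1a at 48.0, Gadd45g at 42.7, Ccnd3 at 17.6, Btg2 at 13.5, Cdkn1b at 8.52, Ccnd1 at 3.16, Gadd45b at 2.88, Gadd45a at 1.00, Ccnd2 at 0.674 and Ccne1 at 0.265 RPKM. Cdkn1a and Gadd45g overlapped, as did Ccnd3 and Btg2, Btg2 and Cdkn1b, and Ccnd1 and Gadd45b. Within every FGF19 mouse Btg2 was above Cdkn1b and Ccnd1 above Gadd45b, and within every vehicle mouse Gadd45a was above Ccnd2. The order of the other overlapping pairs changed between mice.

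**Figure D4:**
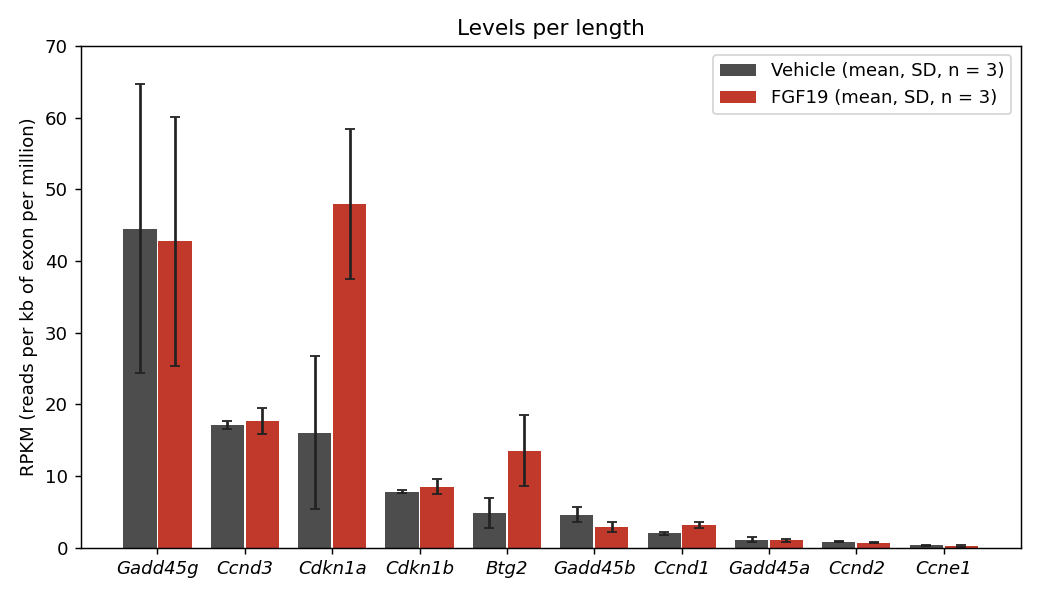
Mean level per gene in RPKM with vehicle (grey) and FGF19 (red), with error bars of 1 SD over 3 mice, in the order of the vehicle means. Gadd45g and Ccnd3 have about the same bar in both groups, and the Cdkn1a bar goes from 16.1 to 48.0 RPKM.

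Within each family, a member's share of the summed RPKM was compared by an exact permutation test over mice, two-sided, which cannot go below 0.1 with 3 against 3. Ccnd3 made up most of the D-type cyclin RPKM, at 85.7% with vehicle and 82.0% with FGF19 (exact p = 0.2). The share of Ccnd1 was 10.1% ± 1.17 (SD, n = 3) and 14.9% ± 3.13 (SD, n = 3) and that of Ccnd2 was 4.25% and 3.16% (exact p = 0.1 for each). Cdkn1a made up 63.5% ± 12.7 (SD, n = 3) of the summed RPKM of Cdkn1a and Cdkn1b with vehicle and 84.5% ± 4.43 (SD, n = 3) with FGF19 (exact p = 0.1). Gadd45g held 87.7% and 90.8% of the GADD45 RPKM (exact p = 0.4). With adjustment over the 7 shares compared, the lowest exact p became 0.233.

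The tested genes whose profile over the 6 libraries lay closest to each called member were found by the root mean square difference of centred log2 values. Closest to Ccnd1 were Kit, a receptor tyrosine kinase, at a difference of 0.0358 and Fbxo25 at 0.0675. Neither Kit nor Fbxo25 was called by the quasi-likelihood test (adjusted p = 0.0749 and 0.0663). Closest to Cdkn1a were Ly6a at 0.392 and the metallothionein gene Mt1 at 0.398. Closest to Btg2 were Il1rn, the interleukin-1 receptor antagonist, at 0.295 and Nr0b2, which encodes SHP, at 0.304. The distances of the latter 2 pairs are larger than those of Ccnd1, but the measure is not scaled to the size of a gene's change. Likeness over 6 libraries is a description.

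Other genes of the cycle were read from lists of named genes, each tested in the same fit, and the counts of genes called follow beside the 4.56% higher and 2.84% lower of all genes. In the RB and E2F family, Rbl1, the RB relative p107, was the 1 gene called of 12 tested and rose from 0.952 to 3.16 CPM (log2 fold change 1.72, adjusted p = 0.00631). Among 12 other cyclins, CDKs and their regulators, 1 was called, the CDK1 inhibitory kinase Wee1, which fell from 4.78 to 1.91 CPM (log2 fold change -1.32, adjusted p = 0.00705). Among 16 S phase and mitosis genes, the replication helicase subunit Mcm2 rose (log2 fold change 0.97, adjusted p = 0.0342) and the mitotic gene Birc5 fell (log2 fold change -1.46, adjusted p = 0.0411). By limma-voom the adjusted p of Birc5 was 0.0522. Among 16 genes of the turnover of cyclins and CDK inhibitors, the CDK subunit genes Cks1b and Cks2 were called in opposite directions, with log2 fold changes of 0.63 and -0.70.

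Of the 10 tested genes of the MYC network, Myc, a driver of growth, fell from 12.4 to 4.63 CPM (log2 fold change -1.42, adjusted p = 0.0128), while its relatives Mycn and Mycl1 rose, by log2 fold changes of 1.72 and 0.63. Of 22 tested genes of the p53 axis, Sesn2, a stress-induced inhibitor of mTORC1, rose (log2 fold change 0.58, adjusted p = 0.0307), as did the death receptor gene Eda2r, from a mean of 0.149 to 1.21 CPM (log2 fold change 2.96, adjusted p = 0.0315). FGF19 replicate 2 had 2.30 CPM of Eda2r and the other FGF19 livers had 0.744 and 0.589 CPM, and without it the log2 fold change was 2.12 (adjusted p = 0.0666). A floor of 3 counts is 0.131 to 0.158 CPM, so the vehicle level of Eda2r is near the limit of detection. The p53 axis held 0 genes called lower by the quasi-likelihood test, DESeq2, limma-voom or the likelihood ratio test, and at an unadjusted p under 0.05 the quasi-likelihood test had 4 higher and 2 lower. Trp53, Mdm2 and Ccng1, the gene of p53, its ubiquitin ligase and a target, had log2 fold changes of -0.02, 0.17 and 0.27 and were not called. The median log2 fold change of the 22 genes was 0.20.

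No gene was called among the 10 tested of the BTG and TOB family with CCR4-NOT, the 10 kinase partners of GADD45 and the 2 other CDK inhibitors tested by the quasi-likelihood test. At an unadjusted p under 0.05 these lists held 1 gene higher, 1 lower and 1 lower, and those were Btg1 (log2 fold change 0.32, adjusted p = 0.0961), Map2k6 (-1.05, adjusted p = 0.0857) and Cdkn1c (-0.76, adjusted p = 0.0778). Map2k6 was called by DESeq2 and by the likelihood ratio test and Cdkn1c by the likelihood ratio test, whereas limma-voom called none of the 3 and Btg1 was called by no tool. Of 6 other stress-induced growth arrest genes, Nupr1 rose (log2 fold change 1.58, adjusted p = 0.0164).

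**Figure D5:**
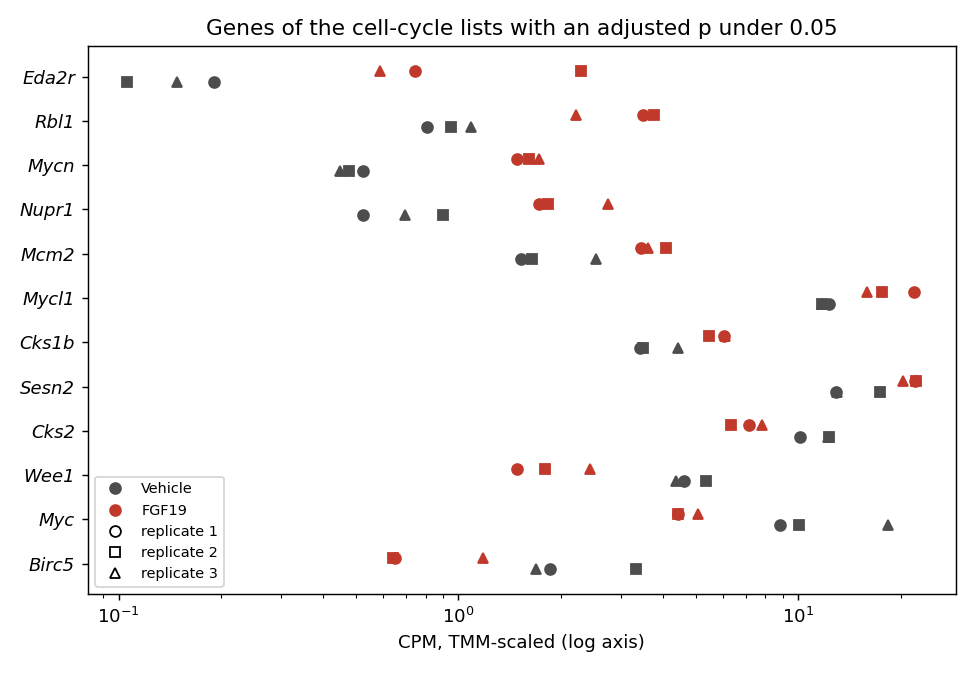
Level in each liver, in TMM-scaled CPM on a log axis, of the 12 genes of the cell-cycle lists called at an adjusted p under 0.05, with vehicle in grey, FGF19 in red and a symbol shape per replicate. Each of the 12 genes shows no overlap between the groups, with Cks2, Wee1, Myc and Birc5 lower and the others higher with FGF19.

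Wee1, Rbl1 and Mycn kept an adjusted p under 0.05 without each library in turn. The adjusted p of Myc was 0.0501 and 0.0534 without FGF19 replicates 1 and 2, and that of Nupr1 was 0.0638 and 0.0752 without vehicle replicates 1 and 3. Mcm2 was called only without vehicle replicate 3 or FGF19 replicate 3, Sesn2 only without vehicle replicate 2 or FGF19 replicate 3, Cks2 only without vehicle replicate 1 or FGF19 replicate 3, and Eda2r only without FGF19 replicate 1 or 3, and their highest adjusted p in the other fits was 0.125, 0.140, 0.0871 and 0.118. Birc5 and Mycl1 were called only without FGF19 replicate 3 and reached 0.151 and 0.102 otherwise. Cks1b was called in none of the 6 fits, with an adjusted p of 0.0509 to 0.154.

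The livers were checked against markers of their cell types. Hepatocyte markers summed to 99539 to 102965 CPM with vehicle and 89949 to 102627 CPM with FGF19, and 0 of the 6 were called by the quasi-likelihood test, with 1 higher and 2 lower at an unadjusted p under 0.05. The ones lower were Cyp2e1, a cytochrome P450, at 9603 CPM with vehicle and 7324 CPM with FGF19 (log2 fold change -0.39, adjusted p = 0.0645), and the hepatocyte transcription factor Hnf4a, at 839 and 675 CPM (log2 fold change -0.31, adjusted p = 0.120), both without overlap between the groups. Cyp2e1 was called lower by DESeq2, limma-voom and the likelihood ratio test. The marker higher at an unadjusted p under 0.05 was Tat (log2 fold change 0.39, adjusted p = 0.157), which no tool called. Of the 6 neutrophil markers, 5 were found in the count tables and 2 were tested, S100a9 was called higher (log2 fold change 2.16, adjusted p = 0.0292), and the summed level was 0.572 to 2.13 CPM with vehicle and 3.63 to 5.19 CPM with FGF19. Of the 5 endothelial markers, Cdh5 was also called higher (log2 fold change 0.43, adjusted p = 0.0275) and 4 were not called. Those were Pecam1 and Lyve1 (log2 fold changes 0.14 and 0.20) and Stab2 and Kdr (-0.01 and -0.17). The summed level of the list was 175 to 194 CPM with vehicle and 181 to 212 CPM with FGF19. Sums of the Kupffer cell, lymphocyte, stellate cell and cholangiocyte lists overlapped between the groups. The quasi-likelihood test called 0 of their genes, with 1, 0, 1 and 0 higher and 1, 1, 1 and 0 lower at an unadjusted p under 0.05. Vsig4, of Kupffer cells, was called lower by DESeq2 and the likelihood ratio test, the latter also called Cd79a, of B cells, and Reln, of stellate cells, lower, and limma-voom called no gene of these lists. Without vehicle replicate 1 or 2 or FGF19 replicate 1 or 2, the adjusted p of S100a9 was 0.0939, 0.0793, 0.0523 and 0.0862, and that of Cdh5 was 0.0663 to 0.123 in every fit but the one without FGF19 replicate 3. Without vehicle replicate 3, the log2 fold change of S100a9 was 3.28 (adjusted p = 0.00711). The part of these cells in the members' results was not tested, and in whole liver fewer cells of a type and less RNA per cell cannot be told apart.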

How the data were processed

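Reads were trimmed with Trimmomatic 0.36, aligned with STAR and counted on exons of an mm9 annotation with featureCounts 1.5.2 by the authors, and the deposited values are raw counts per gene, with no normalization. Strand was not used, mates were counted as separate reads and reads of several places or genes were left out, so counts of overlapping genes are uncertain. Total counts were 18994654 to 22920056 per mouse. A second deposited table holds the authors' own comparison (fold change, mean level and p) and was not used. Counts were tested in R 4.3.3 with edgeR 4.0.16 (TMM, filterByExpr, quasi-likelihood test, no covariate), with Benjamini-Hochberg adjustment over 12559 genes and calls at an adjusted p under 0.05. The study names edgeR and a threshold of p under 0.01, not the kind of test. Scripts were tested on simulated data. The labels do not say more of the mice than their replicate numbers, so the p-values measure the spread between these samples. Intervals are at 95%. No libraries were duplicates of each other.

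Genes were named by rule: the 10 members, the called genes of each list (at most 4, by size of change), its best known members, and the 2 closest profiles (log2 of CPM + 0.5, mean of at least 1 CPM). Members and lists were chosen with earlier results of these data known. Alternatives were DESeq2 1.42.0, limma-voom (limma 3.58.1), the likelihood ratio test, no TMM scaling, no filter, at least 1 CPM in every library, an unadjusted p under 0.01, the replicate number as a block, and each library left out, which for the list genes was added after the results had been seen.

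Promoter motifs were searched without mismatch on both strands. The p53 motifs were added after the promoters had been read, the half-site after a pair of half-sites with no spacer had matched no member window, so its matches come from a search loosened after a null result.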

Additional observations from a re-analysis of the deposited data

How the results depend on the processing

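Cdkn1a, Btg2 and Ccnd1 stayed called with DESeq2, limma-voom, the likelihood ratio test, no TMM scaling and both other filters, and the median of all genes moved by at most 0.01 on the log2 scale. The likelihood ratio test called 579 genes lower, against 357, and 1 member lower. At an unadjusted p under 0.01, 626 genes were lower. DESeq2 called 1 gene lower among the GADD45 kinase partners and 2 among the turnover genes. Leaving out 1 library gave 236 to 1015 genes higher and 91 to 926 lower, both highest without FGF19 replicate 3, and 0 to 3 members higher, with log2 fold changes of -0.033 to 0.12 for Ccnd3, -0.73 to 0.025 for Ccne1, -0.31 to 0.16 for Gadd45a and -0.43 to 0.36 for Gadd45g. The cause was not tested. With the replicate number as a block, 370 genes were higher and 164 lower and 1 member was higher, Cdkn1a (adjusted p = 0.00549), with 0.0887 for Ccnd1 and 0.0668 for Btg2. Same-numbered mice had correlations of -0.048, -0.227 and -0.208 in their deviations from the group means, no sample correlated best with its own number, and the numbers only name the samples. Ccne1 had 7 to 18 reads per liver, and counting error was not separated from the spread between mice for any gene.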
